A study of Mus musculus with 16 samples.

Results

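Irf4, Irf8, Prdm1, Pax5, Spib, Spi1, Ebf1, Pou2af1, Pou2f2 and Ikzf3 are transcription factors and cofactors that set B cell identity or the exit to the plasma cell, and their mRNA was followed through 6 gates of mouse B cells between the germinal centre and memory. They were chosen by name, as 10 genes of the 23234 named genes in the deposited table, and all 10 were found. Spi1 stood there under its older symbol, Sfpi1. The cells were B1-8hi B cells, whose antigen receptor binds the hapten NP, on a C57BL/6 background with the genotype Bcl6-YFP(KI/+) B1-8hi(KI/+), so every group carried 1 reporter allele of Bcl6 and 1 knock-in receptor allele. Naive donor cells were moved into wild-type CD45.1+ mice, which were then immunised intraperitoneally with NP-CGG in alum. On day 10, splenocytes of 9 recipients were pooled and CD45.2+NP+CD138-IgG1+ donor cells were sorted. Fraction 7 (n = 3 libraries) was the CD38+GL7- Bcl6-YFPlo Efnb1lo gate, which the labels name mature memory cells. Fraction 6 (n = 2) was its Bcl6-YFPlo Efnb1hi neighbour, named pre-memory, and Fraction 5 (n = 3) the Bcl6-YFPhi Efnb1hi gate, named pro-memory. Fraction 2 (n = 2) and Fraction 3 (n = 3) were CD38-CD86hiCXCR4lo light zone cells with high Bcl6-YFP, and with high CD69 in Fraction 2 (recycling-prone) and low CD69 in Fraction 3 (under selection). The LZ gate (n = 3) took CD38-CD86hiCXCR4lo light zone cells with no limit on Bcl6-YFP or CD69. No animal age was given in the labels, and a knock-in receptor allele, a reporter allele and transfer into an intact host limit these cells as a model of a natural response.

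In the germinal centre, B cells mutate their receptors and are selected in the light zone, from which they return to division, become memory cells or become plasma cells. Pax5 and Ebf1 hold the B cell programme in place, and Prdm1 (Blimp-1) shuts it down in plasma cells. Irf4 and Irf8 are related interferon regulatory factors that bind DNA together with the ETS factors Spi1 (PU.1) and Spib. A low level of Irf4 is known to go with the germinal centre programme and a high level with plasma cell formation, where Irf4 activates Prdm1. Pou2f2 (Oct-2) binds the octamer motif of immunoglobulin and other B cell genes, Pou2af1 (OBF-1, Bob1) is its coactivator and is needed for germinal centres, and Ikzf3 (Aiolos) is an Ikaros family zinc finger factor of mature lymphocytes.

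The promoters of the members that varied most (Irf4, Pou2af1 and Prdm1) and of Spib are shown because 3 of these 4 hold the same octamer-like letters and Irf4 holds none of the motifs searched. The sequences are from RefSeq on GRCm38.p6 and run from 250 bases before to 50 bases after the annotated start, 5′ to 3′ in the direction of the gene. Capitals mark every match to a motif on either strand.
Pou2af1 promoter, chr9:51213440-51213739, plus strand: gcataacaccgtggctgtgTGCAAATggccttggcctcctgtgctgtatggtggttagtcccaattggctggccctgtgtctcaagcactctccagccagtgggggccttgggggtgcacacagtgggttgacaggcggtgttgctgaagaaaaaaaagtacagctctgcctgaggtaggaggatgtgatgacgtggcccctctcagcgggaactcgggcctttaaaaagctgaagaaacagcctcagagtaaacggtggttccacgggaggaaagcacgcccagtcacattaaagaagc
Prdm1 promoter, chr10:44458699-44458998, minus strand: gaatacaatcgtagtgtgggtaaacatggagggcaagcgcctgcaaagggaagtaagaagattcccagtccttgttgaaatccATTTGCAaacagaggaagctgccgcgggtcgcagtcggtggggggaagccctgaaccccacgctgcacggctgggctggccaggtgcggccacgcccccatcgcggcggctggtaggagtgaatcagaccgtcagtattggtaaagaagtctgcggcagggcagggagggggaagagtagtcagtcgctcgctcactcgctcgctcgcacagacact
Spib promoter, chr7:44532022-44532321, minus strand: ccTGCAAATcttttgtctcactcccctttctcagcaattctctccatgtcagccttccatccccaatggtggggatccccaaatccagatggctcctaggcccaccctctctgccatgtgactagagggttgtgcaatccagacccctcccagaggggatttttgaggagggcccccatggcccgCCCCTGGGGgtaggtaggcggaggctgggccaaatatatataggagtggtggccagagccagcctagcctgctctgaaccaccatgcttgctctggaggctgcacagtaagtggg
Irf4 promoter, chr13:30748983-30749282, plus strand: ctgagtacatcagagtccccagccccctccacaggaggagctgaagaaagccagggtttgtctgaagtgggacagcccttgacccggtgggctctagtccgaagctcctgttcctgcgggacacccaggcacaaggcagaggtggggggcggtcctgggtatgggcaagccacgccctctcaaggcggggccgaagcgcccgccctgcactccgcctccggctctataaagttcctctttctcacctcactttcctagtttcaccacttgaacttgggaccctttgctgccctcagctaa
The motifs were the octamer ATGCAAAT, the octamer without its first base, TGCAAAT, the paired Ebf1 half-sites CCCNNGGG, the ETS-IRF composite element GGAANNGAA, an interferon regulatory element GAAANNGAA, and AAAGTGAAA, a core bound by Prdm1. In Pou2af1 the match TGCAAAT begins at position -231, counted with the annotated start as 0, in Spib at -248, and in Prdm1 the match lies on the opposite strand and begins at -167. The capitals near the middle of Spib are 2 overlapping matches to CCCNNGGG. RefSeq promoters were matched for 8 members, with 2 each for Irf8 and Ebf1, which makes 10 promoters.

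Of the 10 member promoters, 3 hold TGCAAAT, against 4.02% of all 32851 promoters of the same length. None of the 10 holds the full octamer (1.74% of all promoters), 2 hold CCCNNGGG (13.7%), 1 holds GGAANNGAA (8.24%), 1 holds GAAANNGAA (8.56%) and none holds AAAGTGAAA (0.594%). The CCCNNGGG matches were in Spib and Irf8, the GGAANNGAA match was in Pou2f2 and the GAAANNGAA match in Ebf1. The shorter octamer form was added after the promoters had been read, and every full octamer also holds it. A match is a run of letters and not a shown binding site.

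The values are FPKM, sequenced fragments scaled to transcript length and library size, so they can be set side by side between genes. FPKM summed to between 416741 and 492578 in the 16 libraries, 10133 to 10552 genes reached 1 FPKM in each, and the depth of a library, judged from the spacing of its lowest values, was 0.923 to 1.21 times that of LZ library 1. The true depth is unknown. B cell markers (Cd79a, Cd79b, Ms4a1 and Cd22) summed to between 2133 and 3850.4 FPKM in every library, and the T cell and NK cell marker lists stayed at or below 4.28 and 0.507 FPKM. Libraries 2 and 3 of Fraction 7 stood apart in the sum of 8 plasma cell markers, although all gates were CD138-negative. That sum was 360, 639 and 632 FPKM in Fraction 7, against 290 and 299 FPKM in Fraction 6 and 434 to 544 FPKM elsewhere. The gap lay mainly in Jchain and Xbp1, with Sdc1 also higher, whereas Fkbp11, another of the markers, was highest in library 1. Of 8 macrophage and monocyte markers, which summed to 38.2 to 99.1 FPKM in Fraction 7 and to at most 19.4 FPKM elsewhere, Itgam (12.8, 8.22 and 12.5 FPKM) and Ly6c2 (16.1, 59.8 and 67.9 FPKM) were raised in Fraction 7, while Cd14 was listed at 0 and Csf1r was at most 0.528 FPKM there. Neutrophil marker sums reached 33.7 FPKM in Fraction 7 library 3 and 37.1 FPKM in Fraction 3 library 3, dendritic cell marker sums lay between 13.9 and 35.1 FPKM, and erythroid sums between 11.0 and 73.8 FPKM. Markers of naive B cells (Fcer2a, Ccr7 and Cr2) summed to 385 to 437 FPKM in Fraction 7 and to 596 to 627 FPKM in Fraction 6, against 303 to 547 FPKM in the other groups. In sorted pools, a smaller share of expressing cells and less RNA per cell cannot be told apart.

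Most of the 10 genes were abundant in all groups. Averaged over the 16 libraries, Pou2af1 stood at 328 FPKM (rank 189 of the 11266 genes tested), Irf8 at 283, Spib at 244, Pax5 at 188, Ikzf3 at 164, Pou2f2 at 108, Spi1 at 85.0 and Ebf1 at 42.1 FPKM. Irf4, at 9.34 FPKM, ranked 6109, and Prdm1, at 0.546 FPKM, ranked 11099. The distance between the highest and the lowest group mean on the log2(FPKM + 1) scale was 2.095 for Irf4, 1.49 for Pou2af1 and 1.40 for Prdm1, wider than in 92.9%, 85.8% and 83.8% of the genes tested. It was 0.27 for Ikzf3, which is the 8.38th percentile, and its median was 0.61 over the 10 members and 0.70 over all genes tested. The set therefore held 3 genes that varied widely between gates and 7 that varied about as much as a typical gene or less. Of the 3, Prdm1 was tested only because Fraction 7 reached 1 FPKM, so the filter itself favoured a wide distance for it.

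**Figure D1:**
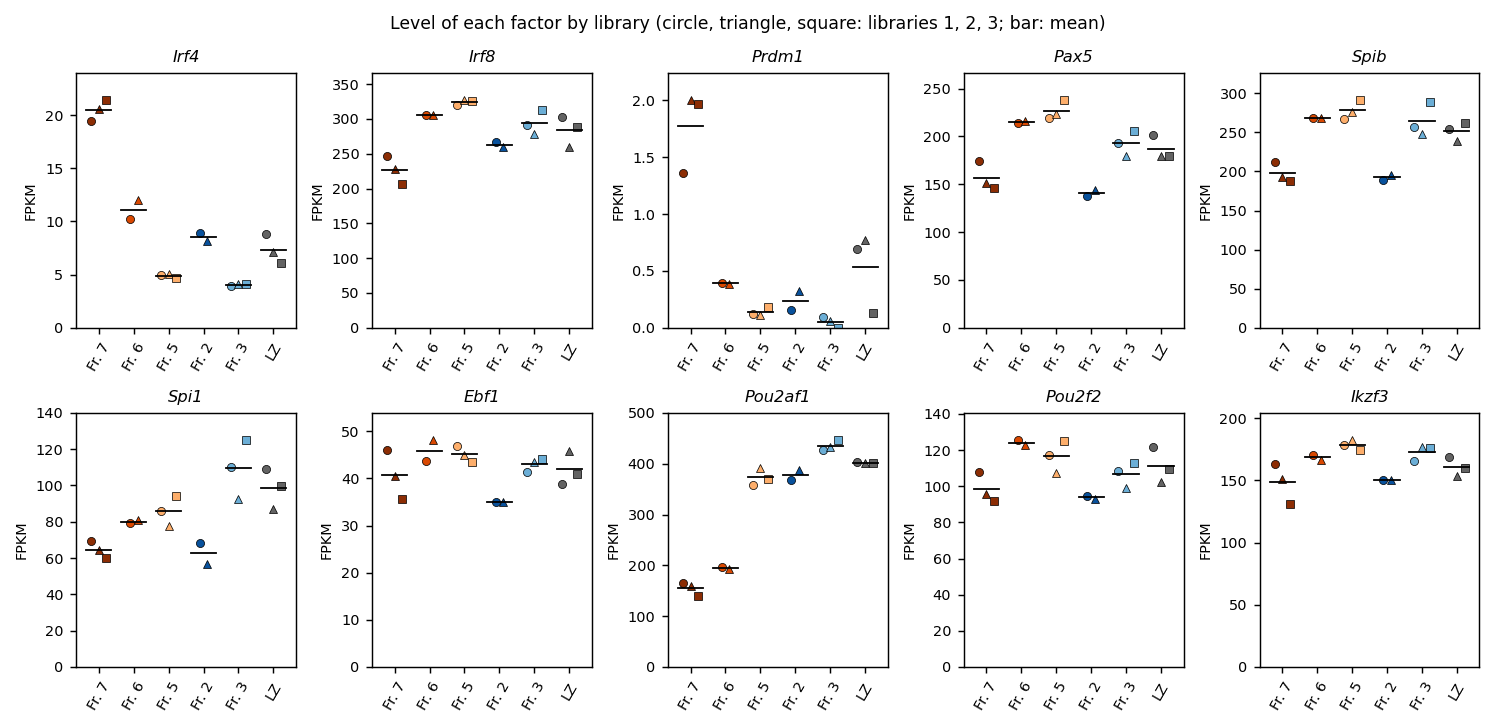
FPKM of the 10 factors in each of the 16 libraries, with 1 panel for each gene and its own axis from 0; points are libraries and bars are group means. Irf4 is highest in Fraction 7 (19.5 to 21.4 FPKM) and lowest in Fraction 3 (3.94 to 4.08 FPKM), Pou2af1 is at 139 to 196 FPKM in Fractions 7 and 6 and at 358 FPKM or above elsewhere, and Ikzf3 moves little.

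Irf4 was high at both the memory end and in the CD69-high light zone gate. It stood at 19.5, 20.6 and 21.4 FPKM in Fraction 7, at 10.2 and 12.0 FPKM in Fraction 6, at 4.99, 5.01 and 4.65 FPKM in Fraction 5, at 8.90 and 8.15 FPKM in Fraction 2, at 3.94, 4.07 and 4.08 FPKM in Fraction 3, and at 8.80, 7.14 and 6.05 FPKM in LZ. From the highest group down the order was Fraction 7, Fraction 6, Fraction 2, LZ, Fraction 5 and Fraction 3, and only Fraction 2 and LZ overlapped among neighbours in it. In limma's fit over all genes, Irf4 rose by 1.04 ± 0.12 on the log2(FPKM + 1) scale (SE) in Fraction 6 against Fraction 5 (adjusted p = 3.77e-05) and by 0.83 ± 0.12 in Fraction 7 against Fraction 6 (adjusted p = 0.000195). The means were 2.27 and 1.85 times as high over these 2 steps. Within the light zone, limma gave a rise of 0.92 ± 0.12 in Fraction 2 against Fraction 3 (adjusted p = 0.000649), and Fraction 5 lay 0.70 below Fraction 2 (adjusted p = 0.00033). Fraction 5 and Fraction 3 did not pass the limma test (0.23, adjusted p = 0.128), although their libraries did not overlap. Against LZ, Irf4 in Fraction 7 rose by 1.38 ± 0.11 (limma, adjusted p = 7.42e-08). Irf4 passed the threshold in these 5 comparisons under every alternative run. Without the 2 Fraction 7 libraries high in Sdc1, Jchain and Xbp1 its rise was 0.77 against Fraction 6 and 1.31 against LZ. Fraction 7 is then library 1 alone. Here, as wherever a group is down to 1 library, limma assumes that it varies like the other groups. The p-values of such fits carry no replicate check of that group.

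Irf8, the relative of Irf4 that is high in germinal centre B cells, moved far less. It was at 246, 228 and 207 FPKM in Fraction 7, at 305 and 306 FPKM in Fraction 6, at 320, 327 and 325 FPKM in Fraction 5, at 267 and 260 FPKM in Fraction 2, at 291, 279 and 313 FPKM in Fraction 3, and at 303, 260 and 288 FPKM in LZ. Fraction 5 was highest and Fraction 7 lowest, and every Fraction 7 library lay below every library of the other groups. Irf8 fell by 0.43 in Fraction 7 against Fraction 6 and by 0.32 against LZ (limma, adjusted p = 0.00187 and 0.00161), and rose by 0.30 in Fraction 5 against Fraction 2 (adjusted p = 0.00866). The fall against LZ was not seen after quantile normalization, where the change was 0.05 (limma, adjusted p = 0.545). In Fraction 7 library 1 alone the changes were -0.31 against Fraction 6 and -0.20 against LZ, and neither passed limma's test (adjusted p = 0.0507 and 0.0821). The call of the rise in Fraction 5 ended without Fraction 2 library 2 (0.28, limma adjusted p = 0.0632).

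The balance of the 2 factors differed widely between gates. The FPKM of Irf8 over that of Irf4 averaged 11.1 ± 1.48 in Fraction 7, 27.7 ± 3.14 in Fraction 6, 66.5 ± 3.10 in Fraction 5, 30.9 ± 1.33 in Fraction 2, 73.1 ± 4.26 in Fraction 3 and 39.5 ± 7.13 in LZ (SD, n = 3, 2, 3, 2, 3 and 3). Libraries of Fractions 5 and 3 overlapped in this ratio, and those of Fractions 6 and 2 met at their edge, while the other groups were apart. The ratio was not tested.

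**Figure D2:**
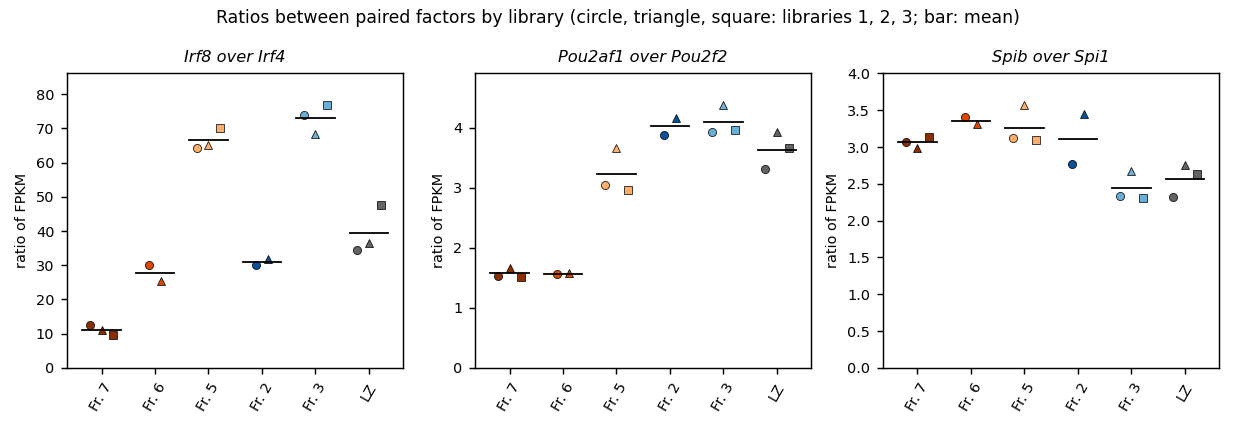
Ratios of FPKM within each library for Irf8 over Irf4, Pou2af1 over Pou2f2 and Spib over Spi1; points are libraries and bars are group means, with each axis from 0. Irf8 over Irf4 averages 11.1 in Fraction 7 and 73.1 in Fraction 3, and Pou2af1 over Pou2f2 averages 1.57 in both Fractions 7 and 6 and 3.23 or more in the other groups.

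Prdm1, the plasma cell repressor, was near the floor of the assay except in Fraction 7. It was at 1.37, 2.00 and 1.97 FPKM in Fraction 7, at 0.397 and 0.387 FPKM in Fraction 6, at 0.117, 0.108 and 0.180 FPKM in Fraction 5 and at 0.152 and 0.322 FPKM in Fraction 2. Fraction 3 libraries had 0.0897 and 0.0615 FPKM and 1 value listed at 0, and LZ libraries had 0.695, 0.772 and 0.127 FPKM. All 3 Fraction 7 libraries lay above all others, and LZ overlapped Fraction 6. Because Prdm1 reached 1 FPKM only in Fraction 7, it was among the genes tested only through that group. The limma change was 0.99 ± 0.19 in Fraction 7 against Fraction 6 and 0.88 ± 0.17 against LZ. The pseudocount of 1 makes these smaller than the ratios of the means, 4.54 and 3.35. Both passed the threshold, but in a gene let in by the group where it is high, so these calls are no support. The changes rest partly on the libraries high in Sdc1, Jchain and Xbp1: with Fraction 7 library 1 alone they were 0.77 and 0.66. None of the other 4 comparisons passed.

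Pou2af1 showed the reverse pattern to Irf4 along the memory gates. It stood at 166, 159 and 139 FPKM in Fraction 7, at 196 and 193 FPKM in Fraction 6, at 358, 392 and 371 FPKM in Fraction 5, at 368 and 387 FPKM in Fraction 2, at 427, 433 and 447 FPKM in Fraction 3, and at 403, 400 and 402 FPKM in LZ. The drop lay between Fractions 6 and 5, which differ in Bcl6-YFP. Pou2af1 fell by 0.94 ± 0.07 (log2, SE) in Fraction 6 against Fraction 5 (limma, adjusted p = 1.46e-06), a mean 0.521 times as high. It fell by a further 0.33 in Fraction 7 against Fraction 6 (limma, adjusted p = 0.00471), and by 1.37 in Fraction 7 against LZ (adjusted p = 6.28e-10). The first and the last of these calls held under every alternative, and in Fraction 7 library 1 alone, with the spread taken from the other groups, the change against LZ was -1.27 (limma, adjusted p = 8.78e-08). The smaller step between Fractions 7 and 6 was -0.23 there (adjusted p = 0.0604). Pou2af1 also fell by 0.22 in Fraction 5 against Fraction 3 (limma, adjusted p = 0.0192). That call ended without Fraction 3 library 3 (-0.20, adjusted p = 0.0616), Fraction 5 library 1 (-0.19, adjusted p = 0.0798) or Fraction 5 library 3 (-0.22, adjusted p = 0.0543), and under quantile normalization (-0.08, adjusted p = 0.27). Between Fractions 5 and 2 the change was -0.02 (95% interval -0.17 to 0.14), and 0.21 after quantile normalization.

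Pou2f2, the octamer-binding partner of Pou2af1, did not share that drop. It was at 108, 95.5 and 92.0 FPKM in Fraction 7, at 126 and 123 FPKM in Fraction 6, at 117, 107 and 125 FPKM in Fraction 5, at 94.8 and 92.9 FPKM in Fraction 2, at 108, 99.0 and 113 FPKM in Fraction 3, and at 122, 102 and 110 FPKM in LZ. All neighbours in its order of group means overlapped. The change in Fraction 6 against Fraction 5 was 0.09 (95% interval -0.11 to 0.29; limma, adjusted p = 0.551). Pou2f2 fell by 0.33 in Fraction 7 against Fraction 6 and rose by 0.31 in Fraction 5 against Fraction 2 (limma, adjusted p = 0.0199 and 0.0162). The first call ended without any 1 of 4 libraries, Fraction 6 library 1 or 2 or Fraction 7 library 2 or 3 (adjusted p = 0.113, 0.0867, 0.0556 and 0.0688 by limma), where the change was -0.29 to -0.35. It was -0.23 under quantile normalization (limma, adjusted p = 0.0525) and -0.20 in Fraction 7 library 1 alone (adjusted p = 0.31). The second ended without Fraction 2 library 1 or 2 or Fraction 5 library 3 (adjusted p = 0.0613, 0.0863 and 0.0611 by limma). The ratio of Pou2af1 over Pou2f2 averaged 1.57 ± 0.0841 in Fraction 7 and 1.57 ± 0.0101 in Fraction 6, against 3.23 ± 0.379 in Fraction 5, 4.02 ± 0.197 in Fraction 2, 4.09 ± 0.25 in Fraction 3 and 3.63 ± 0.304 in LZ (SD).

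Pax5, the factor that commits and keeps cells to the B lineage, was lowest in the CD69-high light zone gate and in Fraction 7. It was at 174, 151 and 146 FPKM in Fraction 7, at 214 and 216 FPKM in Fraction 6, at 220, 224 and 238 FPKM in Fraction 5, at 137 and 144 FPKM in Fraction 2, at 193, 180 and 206 FPKM in Fraction 3, and at 202, 179 and 179 FPKM in LZ. Fraction 2 lay below every other group, and Fraction 5 above every other group. Pax5 fell by 0.45 in Fraction 2 against Fraction 3 (limma, adjusted p = 0.00428) and rose by 0.68 in Fraction 5 against Fraction 2 (adjusted p = 2.64e-05), a mean 1.61 times as high; both calls held under every alternative. It fell by 0.45 in Fraction 7 against Fraction 6 (limma, adjusted p = 0.00179), and by 0.25 in Fraction 7 against LZ (adjusted p = 0.0112). With Fraction 7 library 1 alone the changes were -0.30 and -0.10 (limma, adjusted p = 0.0661 and 0.404). The change against LZ was 0.06 after quantile normalization (adjusted p = 0.456) and -0.10 under median-ratio scaling (limma, adjusted p = 0.142). It also lost its call with the 2 groups alone (limma, adjusted p = 0.0519). The same held without LZ library 1 (-0.19, adjusted p = 0.0576 by limma) or Fraction 7 library 3 (-0.20, adjusted p = 0.0514). A rise of 0.23 in Fraction 5 against Fraction 3 (limma, adjusted p = 0.0342) was lost without Fraction 3 library 1 or 2 or any 1 of the Fraction 5 libraries, with adjusted p up to 0.128, and with no filter or the 2 groups alone (adjusted p = 0.0581 and 0.0503).

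Ebf1, which acts with Pax5 in setting up the B lineage, varied by at most 0.38 between group means. It was at 46.0, 40.4 and 35.7 FPKM in Fraction 7, at 43.6 and 48.2 FPKM in Fraction 6, at 46.9, 44.9 and 43.4 FPKM in Fraction 5, at 35.0 FPKM in both Fraction 2 libraries, at 41.4, 43.4 and 44.2 FPKM in Fraction 3, and at 38.9, 45.9 and 41.0 FPKM in LZ. Only Fraction 2 lay below all other libraries. Ebf1 rose by 0.35 in Fraction 5 against Fraction 2 (limma, adjusted p = 0.00909), and this call held under every alternative. In Fraction 2 against Fraction 3 it differed by -0.29 and did not pass (limma, adjusted p = 0.0606), but it passed under quantile normalization, median-ratio scaling, with the 2 groups alone and with array weights (limma, adjusted p = 0.0269, 0.0149, 0.0422 and 0.0343).

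Ikzf3 was the steadiest member. It ranged from 131 FPKM in a Fraction 7 library to 183 FPKM in a Fraction 5 library, and group means from 148 to 178 FPKM. It rose by 0.24 in Fraction 5 against Fraction 2 (limma, adjusted p = 0.0244). This call was lost without Fraction 2 library 1 or 2 or Fraction 5 library 1 or 2, with adjusted p of 0.0939, 0.101, 0.0524 and 0.06 in limma.

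The ETS factors Spib and Spi1, partners of Irf4 and Irf8 on composite elements, were both low in Fractions 7 and 2. Spib was at 212, 193 and 187 FPKM in Fraction 7, at 269 FPKM in both Fraction 6 libraries, at 268, 276 and 291 FPKM in Fraction 5, at 189 and 195 FPKM in Fraction 2, at 257, 248 and 289 FPKM in Fraction 3, and at 254, 239 and 262 FPKM in LZ. Spi1 was at 69.3, 64.5 and 59.9 FPKM in Fraction 7, at 79.1 and 81.0 FPKM in Fraction 6, at 85.9, 77.4 and 94.0 FPKM in Fraction 5, at 68.4 and 56.7 FPKM in Fraction 2, at 110, 92.7 and 125 FPKM in Fraction 3, and at 109, 86.8 and 99.5 FPKM in LZ. For both genes, Fractions 7 and 2 overlapped each other and lay below all libraries of the other groups. In Fraction 2 against Fraction 3, Spib fell by 0.46 and Spi1 by 0.79 (limma, adjusted p = 0.00243 and 0.0023), and both calls held under every alternative. Spib rose by 0.53 and Spi1 by 0.45 in Fraction 5 against Fraction 2 (limma, adjusted p = 9.11e-05 and 0.0134). The Spi1 rise was lost without Fraction 2 library 2 (0.32, adjusted p = 0.155) or Fraction 5 library 3 (0.38, limma adjusted p = 0.0501). In Fraction 7, Spib fell by 0.44 against Fraction 6 and by 0.35 against LZ (limma, adjusted p = 0.000939 and 0.000542). Spi1 fell by 0.60 in Fraction 7 against LZ (limma, adjusted p = 0.000551), and by 0.34 in Fraction 5 against Fraction 3 (adjusted p = 0.0438). In Fraction 7 library 1 alone, with the spread taken from the other groups, the Spib changes were -0.34 and -0.24 and the Spi1 change against LZ was -0.50 (limma, adjusted p = 0.0364, 0.0425 and 0.033). After quantile normalization the changes against LZ were 0.02 for Spib and -0.18 for Spi1 (limma, adjusted p = 0.825 and 0.175). The Spi1 fall in Fraction 5 against Fraction 3 was lost without Fraction 3 library 1 or 3 or Fraction 5 library 1 or 2, with adjusted p up to 0.174 in these fits. It was -0.15 under quantile normalization (limma, adjusted p = 0.34) and -0.29 under median-ratio scaling (adjusted p = 0.0615), and the call also ended with no filter and with the 2 groups alone (adjusted p = 0.0899 and 0.0906). Spib over Spi1 averaged 3.06 in Fraction 7, 3.36 in Fraction 6, 3.26 in Fraction 5 and 3.11 in Fraction 2, and 2.44 in Fraction 3 and 2.57 in LZ.

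**Figure D3:**
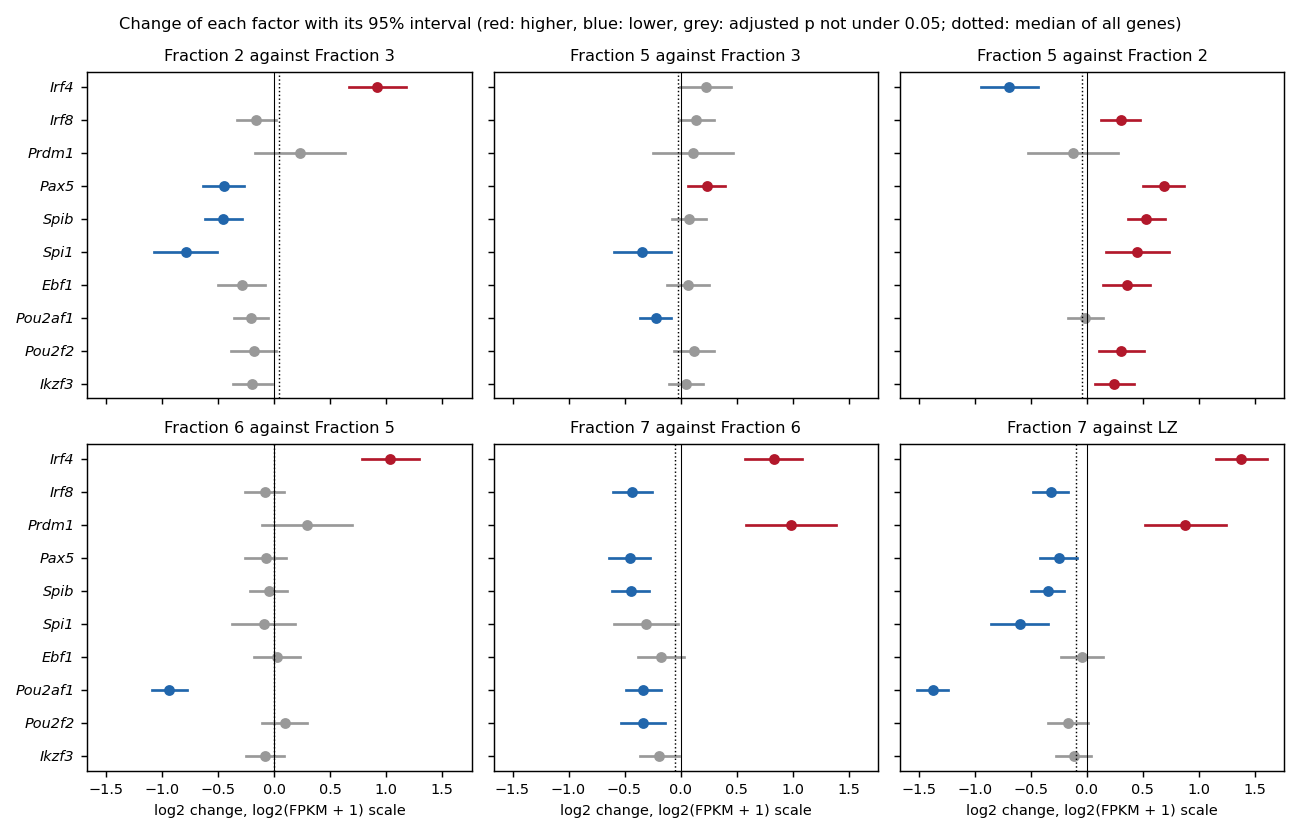
Change of each factor on the log2(FPKM + 1) scale in the 6 comparisons, with its 95% interval from limma. Points to the right of 0 are higher in the first-named group, colours mark adjusted p under 0.05, and the dotted line is the median of all 11266 genes. Irf4 is to the right in all but Fraction 5 against Fraction 2, and Pou2af1 is far to the left in Fraction 6 against Fraction 5 (-0.94) and Fraction 7 against LZ (-1.37).

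Counts of members past an adjusted p of 0.05 are read here against the share of all genes past it. In Fraction 2 against Fraction 3, 1 member rose and 3 fell of 10, where 15.6% of all genes passed, 9.17% higher and 6.45% lower. Scaling moved that split to 1 and 6 under quantile normalization and to 1 and 7 under median-ratio scaling. Fraction 5 against Fraction 3 had 1 member that rose and 2 that fell, where 29.5% of all genes passed (9.99% higher, 19.5% lower). Under quantile normalization 5 rose and 0 fell there, and without Fraction 5 library 1 the limma count was 0, with 3 members at an unadjusted p under 0.05. Fraction 5 against Fraction 2 had 7 members that rose and 1 that fell, where 43.7% passed (16.6% higher, 27.1% lower), and 3 and 1 without Fraction 2 library 2. Fraction 6 against Fraction 5 had 1 that rose and 1 that fell, where 17.5% passed (7.07% higher, 10.4% lower). Fraction 7 against Fraction 6 had 2 that rose and 5 that fell, where 21.2% passed (7.37% higher, 13.9% lower), and with Fraction 7 library 1 alone 1 rose and 1 fell. Fraction 7 against LZ also had 2 that rose and 5 that fell, where 62.1% passed (24.1% higher, 38% lower), so a share of 7 in 10 is near that of all genes. That split was 5 and 1 under quantile normalization, and 2 and 3 with Fraction 7 library 1 alone. The counts for Fraction 7 include Prdm1, which could pass only through that group, so its rise there is no support. Neighbouring comparisons share libraries (Fraction 5 enters 3 of them), so their counts are not separate evidence. The labels do not say that libraries of 1 gate came from separate pools of mice, and p-values then measure only the spread between these libraries.

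The median change of the 10 members beside that of all genes was -0.20 and 0.04 in Fraction 2 against Fraction 3, and 0.09 and -0.03 in Fraction 5 against Fraction 3. It was 0.30 and -0.04 in Fraction 5 against Fraction 2, and -0.06 and -0.00213 in Fraction 6 against Fraction 5. It was -0.32 and -0.05 in Fraction 7 against Fraction 6, and -0.21 and -0.10 in Fraction 7 against LZ. Quantile normalization and median-ratio scaling each put the all-gene median in Fraction 7 against LZ at 0.02, a shift of more than 0.1. The abundant members shifted upward too, and further under quantile normalization than that median did. Pax5 went from -0.25 to 0.06 there and to -0.10 under median-ratio scaling. Ebf1 went from -0.04 to 0.28 and 0.0989, and Ikzf3 from -0.12 to 0.20 and 0.0269, in the same order.

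A list of 18 genes known to depend on Pax5, all of them tested, was followed beside it. Where Pax5 rose most, in Fraction 5 against Fraction 2, 17 of the 18 rose and 0 fell (median 0.62), also under both scalings, where 16.6% of all genes rose and 27.1% fell. In Fraction 2 against Fraction 3, 0 rose and 9 fell (median -0.29), where 6.45% of all genes fell, among them Cd79b, a signalling chain of the B cell receptor (565 ± 28.8 against 875 ± 117 FPKM; limma, adjusted p = 0.00312), and Siglecg, an inhibitory receptor (99.6 ± 3.26 against 143 ± 9.98 FPKM; adjusted p = 0.00222). That count was 2 without Fraction 2 library 1, and 3 without Fraction 2 library 2 or without Fraction 3 library 3. Of the same genes 13 rose and 1 fell in Fraction 5 against Fraction 3 (median 0.36), where 9.99% of all genes rose and 19.5% fell; Cd72, a B cell coreceptor, was at 150 ± 12.6 FPKM in Fraction 5 and 55.9 ± 4.61 FPKM in Fraction 3 (limma, adjusted p = 2.23e-05). In Fraction 6 against Fraction 5, where 17.5% of all genes passed, 4 rose and 1 fell (median 0.12). That count of 5 was 2 without Fraction 6 library 2 or with the 2 groups alone, and 3 without Fraction 6 library 1 or without Fraction 5 library 2. Where Pax5 fell again, in Fraction 7 against Fraction 6, 1 rose and 13 fell (median -0.41), where 13.9% of all genes fell, including Ciita, the master regulator of MHC class II genes (113 ± 8.61 against 190 ± 11.6 FPKM; limma, adjusted p = 6.86e-06), and 1 rose and 9 fell with Fraction 7 library 1 alone. That count of 14 was 9 without Fraction 6 library 2 and 8 with the 2 groups alone. Against LZ, 7 rose and 5 fell in Fraction 7 (median 0.02), which is near the 62.1% of all genes that passed there, and the split was 11 and 3 under quantile normalization and 9 and 4 under median-ratio scaling.

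Within that list, Cd55 and Vpreb3 went against each other along the memory gates. Cd55, which protects cells from complement, was at 65.2 ± 8.64 FPKM in Fraction 7, 29.2 ± 7.33 in Fraction 6, 6.70 ± 1.49 in Fraction 5, 1.08 ± 0.102 in Fraction 2, 2.11 ± 0.493 in Fraction 3 and 2.88 ± 0.39 in LZ (SD). Vpreb3, a B lineage protein that binds immunoglobulin chains, was at 26.1 ± 4.22 FPKM in Fraction 7, 71.5 ± 6.86 in Fraction 6, 112 ± 19.9 in Fraction 5, 102 ± 9.55 in Fraction 2, 152 ± 12.7 in Fraction 3 and 138 ± 25.2 in LZ. Cd55 rose by 4.09 and Vpreb3 fell by 2.35 in Fraction 7 against LZ (limma, adjusted p = 2.54e-10 and 1.61e-08), under every alternative run.

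Plasma cell genes, a list of 20 that were all tested, moved in both directions. Where Irf4 and Prdm1 both rose, in Fraction 7 against Fraction 6, 8 rose and 1 fell (median 0.16), where 7.37% of all genes rose and 13.9% fell, with 4 and 1 in library 1 alone; that count of 9 was 5 without Fraction 6 library 1. Of the 20 genes, 4 (Sdc1, Tnfrsf17, Creb3l2 and Fkbp11) reached 1 FPKM in 2 libraries only through Fraction 7, like Prdm1, so their rises there are given as values and the counts that hold them are no support. Against LZ, 6 rose and 10 fell in Fraction 7 (median -0.21), where 24.1% of all genes rose and 38% fell, and 8 rose and 6 fell under quantile normalization. Derl3, which encodes an endoplasmic reticulum protein, fell to 8.18, 15.6 and 10.1 FPKM in Fraction 7, against 24.0 and 22.7 FPKM in Fraction 6 (limma, adjusted p = 0.00197). Against LZ, Hspa5, the chief chaperone of the endoplasmic reticulum, fell to 111 ± 13.9 FPKM in Fraction 7, against 211 ± 15.5 FPKM in LZ, and Manf, Herpud1 and Txndc5 fell too (limma, adjusted p = 1.38e-06, 4.04e-06, 9.78e-06 and 1.16e-05), of which the Herpud1 call ended under quantile normalization. Fkbp11, a chaperone of secretory cells, was at 13.7, 8.72 and 11.6 FPKM in Fraction 7, against 0.948 and 1.52 FPKM in Fraction 6. Tnfrsf17 (BCMA), a survival receptor of plasma cells, was at 3.02, 2.44 and 4.73 FPKM in Fraction 7 and listed at 0 and at 0.19 FPKM in Fraction 6. Creb3l2, a secretory pathway factor, was at 2.67, 2.94 and 3.84 FPKM in Fraction 7 and at 0.609 and 0.651 FPKM in Fraction 6. These 3 genes, like Irf4, were higher in all 3 libraries of Fraction 7 than in both of Fraction 6. Sdc1, which encodes CD138, was at 0.502, 4.44 and 4.51 FPKM in Fraction 7 and at 0.0222 and 0.162 FPKM in Fraction 6. Jchain, which joins secreted antibody chains, was at 46.9, 296 and 292 FPKM in Fraction 7 and at 21.0 and 36.5 FPKM in Fraction 6, and Xbp1, a driver of the secretory programme, was at 34.0, 84.9 and 81.3 FPKM in Fraction 7 and at 36.0 and 30.1 FPKM in Fraction 6. These last 3 were far higher in libraries 2 and 3 of Fraction 7 than in library 1. In library 1, Sdc1 and Jchain still lay above both Fraction 6 libraries, while Xbp1 lay between them.

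**Figure D4:**
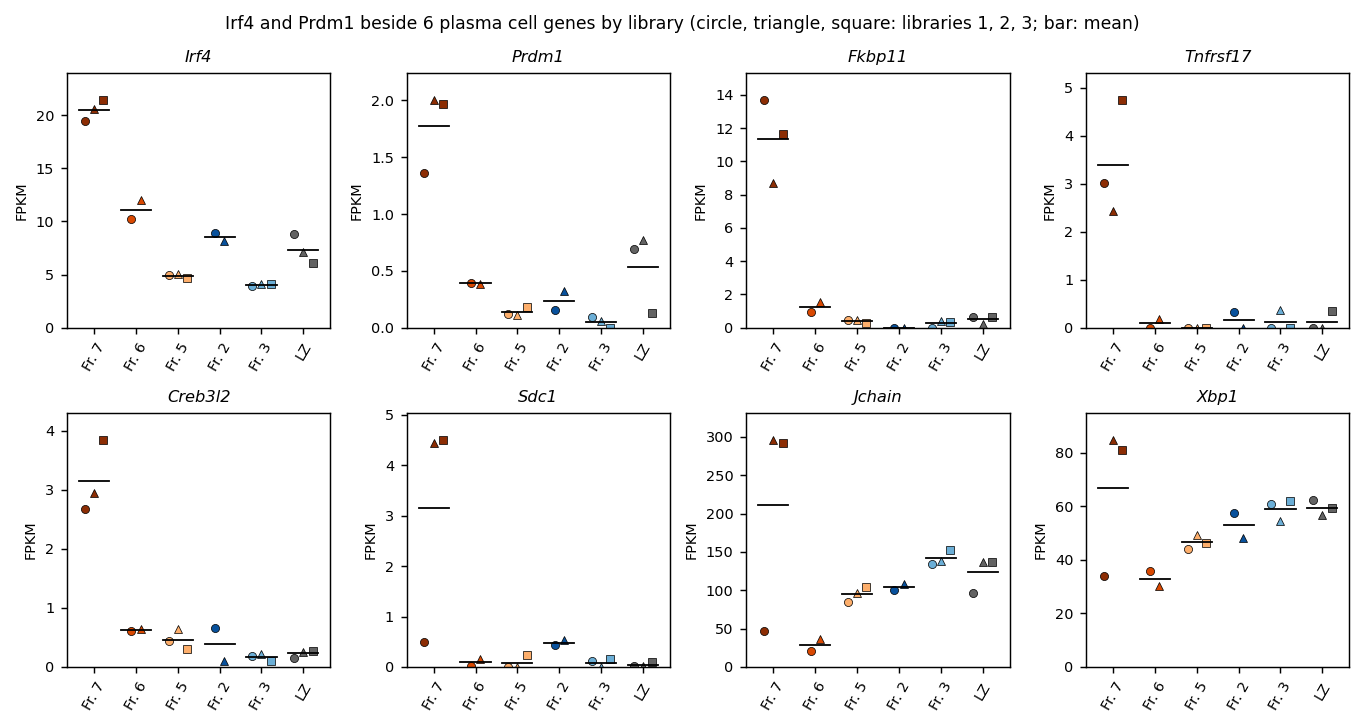
FPKM of Irf4, Prdm1 and 6 plasma cell genes in each of the 16 libraries; points are libraries and bars are group means, with each axis from 0. Irf4, Fkbp11, Tnfrsf17 and Creb3l2 are raised in all 3 Fraction 7 libraries, whereas Sdc1, Jchain and Xbp1 are raised in libraries 2 and 3 (4.44 and 4.51 FPKM for Sdc1) and not to that level in library 1 (0.502 FPKM).

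In the light zone gates, 3 plasma cell genes rose (Pdia4, Sec11c and Hspa5) and 1 fell (Txndc5) of 20 in Fraction 2 against Fraction 3 (median 0.09), where 15.6% of all genes passed. That count of 4 was 2 without Fraction 2 library 1 and 1 without Fraction 2 library 2. Pdia4, a protein disulfide isomerase, rose to 43.5 ± 0.176 FPKM in Fraction 2, against 30.3 ± 2.14 FPKM in Fraction 3 (limma, adjusted p = 0.00392). The list had 2 rises and 8 falls in Fraction 5 against Fraction 2 (median -0.21), where 43.7% of all genes passed, 3 and 4 under quantile normalization, and 5 passed without Fraction 2 library 2. Hspa5 was at 119 ± 14.6 FPKM in Fraction 5 and 259 ± 1.39 FPKM in Fraction 2 (limma, adjusted p = 2.5e-06). The list had 0 rises and 6 falls in Fraction 5 against Fraction 3 (median -0.18), where 29.5% of all genes passed, against 3 and 3 under quantile normalization and 2 and 5 under median-ratio scaling. In Fraction 6 against Fraction 5, where 17.5% of all genes passed, 2 rose and 4 fell (median -0.06), and 1 and 4 under quantile normalization. Pdia4 was at 125.8 ± 9.38 FPKM in Fraction 7, 60.7 ± 1.79 FPKM in Fraction 6 and 35.6 ± 3.12 FPKM in Fraction 5, and rose in both steps (limma, adjusted p = 5.35e-06 and 8.47e-05).

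Batf, a basic leucine zipper factor that binds composite elements with Irf4, was highest where Irf4 was raised in the light zone but not where it was highest. It was at 27.6, 22.5 and 26.1 FPKM in Fraction 7, at 29.7 and 31.6 FPKM in Fraction 6, at 18.8, 20.5 and 26.6 FPKM in Fraction 5, at 56.3 and 48.1 FPKM in Fraction 2, at 19.7, 22.4 and 20.3 FPKM in Fraction 3, and at 44.0, 37.3 and 37.1 FPKM in LZ. Batf rose by 1.28 in Fraction 2 against Fraction 3 (limma, adjusted p = 0.000252) and fell by 0.62 in Fraction 7 against LZ (adjusted p = 0.000516). Of a list of 7 basic leucine zipper factors (Batf, Batf3, Jun, Junb, Jund, Fos and Maff), 6 were tested. Of these, 3 rose and 1 fell in Fraction 7 against LZ (median 0.28), a share near the 62.1% of all genes that passed there. Batf3 reached 1 FPKM in 2 libraries only through Fraction 7.

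Of 18 other B cell transcription factors, 16 were tested. Of these, 7 rose and 1 fell in Fraction 5 against Fraction 2 (median 0.23), beside 43.7% of all genes, including Ets1, which restrains plasma cell formation (145.7 ± 7.78 against 92.5 ± 2.90 FPKM; limma, adjusted p = 0.000302). Against LZ, 6 rose and 4 fell in Fraction 7 (median 0.06), a share near the 62.1% of all genes, and 10 rose and 1 fell under quantile normalization. Runx3 was at 30.1 ± 3.01 FPKM in Fraction 7 and 12.8 ± 2.51 FPKM in LZ (limma, adjusted p = 1.61e-06), and Ikzf1 (Ikaros), the founder of the family of Ikzf3, at 76.3 ± 9.64 FPKM in Fraction 7 and 145.1 ± 3.51 FPKM in LZ (adjusted p = 5.1e-07). Ikzf1 thus fell by 0.93 where Ikzf3 changed by -0.12 (95% interval -0.27 to 0.04).

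The genes whose log2(FPKM + 1) followed each member most closely over the 16 libraries were taken by Pearson r from 8043 genes whose highest group mean reached 5 FPKM. The libraries of a group share their gate, so r mainly describes the 6 group levels and is given with no test. Pou2af1 had the closest companions, H2afx, a histone variant gene (r = 0.99), Phf19 and Rabl5 (both 0.99). Irf4 was followed by Grn, Sik1 and Mfhas1 (0.96 each), Prdm1 by Bhlhe41 (0.93), Pdlim1 and Adora2a (0.92 each), and Irf8 by Myo1e (0.98), Espn and Sorl1 (0.96 each). Pax5 was followed by Snx8 (0.96), Rac2 (0.95) and by another member, Spib (0.95), while Pou2f2 was followed by Snx8 (0.93), Ptprcap (0.92) and Rac2 (0.91). Spib was followed by Camk2d (0.97), Ptpn6 and Atp2a3 (0.96 each), Spi1 by Cotl1 (0.94), Fes (0.93) and Csnk1g2 (0.92), Ebf1 by Camk1d (0.89), Ets1 (0.88) and Rhoq (0.87), and Ikzf3 by Trak2, Hipk1 and Cxxc5 (0.92 each). Among the members, the highest r was that of Pax5 with Spib, and the lowest that of Irf4 with Pou2af1 (-0.90).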

How the data were processed

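mRNA of 16 sorted B cell libraries was sequenced. Per the labels' protocols, TRIzol extraction of small pools of sorted cells was followed by library preparation with NEBNext Ultra RNA reagents, which do not mark strand, so reads from an antisense gene count towards its partner. Per the submitters' processing notes, reads were handled with TopHat2 2.0.8, Cufflinks 2.1.1 and the mm9 genome. The deposited values are FPKM by gene, and 1 row that names no gene stayed out. FPKM are not counts, so no count model was used.

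The 11266 genes that reached 1 FPKM in 2 or more libraries were set to log2(FPKM + 1). limma 3.58.1 in R 4.3.3 fitted 6 group means over the 16 libraries with a variance trend, and p-values were adjusted by Benjamini-Hochberg over all genes within each of 6 comparisons, at a threshold of 0.05. The fit was also run on simulated data with independent noise and planted changes larger than most of those of the members. That run does not test smaller changes or genes near the floor. The fit was repeated without each library in turn, with array weights, with a replicate block, on the 2 groups alone, with a filter of 5 FPKM or none, with a pseudocount of 0.1, after median-ratio scaling, after quantile normalization, and, chosen after seeing the data, Fraction 7 libraries 2 and 3 left out together.

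The 10 members and the lists (other B cell factors, B cell genes drawn up around Pax5, plasma cell genes, basic leucine zipper factors, and markers of 9 cell types) were chosen with earlier results of these data known. All 4 B cell markers that were summed are also among the 18 Pax5-dependent genes, and 2 genes were left out of the marker sums and are not reported here. Other genes named from a list were up to 4 in each direction with the smallest adjusted p; from these the text keeps mainly those whose call held under every alternative, a choice made after seeing the values. Sdc1, Jchain and Xbp1 are named because they separate the Fraction 7 libraries, also seen in the values. Coordinates and promoters are RefSeq's on GRCm38.p6 and were not joined to mm9. Figures were drawn with Python 3.11.15, pandas 2.3.3, numpy 2.4.6 and matplotlib 3.10.9. Absolute depth is unknown, so no counting interval is given.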

Additional observations from a re-analysis of the deposited data

How the results depend on the processing

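Of 31 member calls, 15 held in every alternative run and 3 turned direction (Irf8, Pax5 and Spib in Fraction 7 against LZ, at 0.0505, 0.0551 and 0.0154 after quantile normalization). For the other lists only the strongest calls were followed, up to 4 in each direction per list and comparison. Of these 101 calls, 68 held and 0 reversed, a share that cannot be set beside that of the members. These counts also hold Prdm1 among the members and Fkbp11, Tnfrsf17, Creb3l2 and Batf3 among the list genes, all tested only through Fraction 7. Members called in Fraction 2 against Fraction 3 numbered 4, but 7 under quantile normalization and 8 under median-ratio scaling. In Fraction 5 against Fraction 3 they numbered 3, but 5 under quantile normalization, 1 with no filter, 1 with the 2 groups alone, and 0 to 2 when 1 library was left out. In Fraction 5 against Fraction 2 they numbered 8, and 4 to 7 when 1 library was left out. In Fraction 7 against Fraction 6 they numbered 7, but 4 with the 2 groups alone and 2 without Fraction 7 libraries 2 and 3, an alternative chosen after seeing the data. With the 2 groups alone, the calls of Irf8, Pou2af1 and Pou2f2 in Fraction 7 against Fraction 6 ended (limma, adjusted p = 0.0531, 0.101 and 0.0867). The other values that changed sign were of members not called. Pou2af1 in Fraction 5 against Fraction 2 was 0.21 under quantile normalization (limma, adjusted p = 0.0138), 0.0658 under median-ratio scaling, and -0.051 to 0.0203 with 1 library left out. In Fraction 7 against LZ, quantile normalization gave 0.28 for Ebf1, 0.21 for Pou2f2 and 0.20 for Ikzf3, median-ratio scaling gave 0.0989 for Ebf1 and 0.0269 for Ikzf3, and leaving out Fraction 7 libraries 2 and 3 gave 0.14 for Ebf1 and 0.0237 for Ikzf3; with 1 library left out Ebf1 ranged from -0.13 to 0.0437. In Fraction 6 against Fraction 5, Ebf1 was -0.0461 to 0.0952 with 1 library left out, and in Fraction 7 against Fraction 6 it was 0.00611 without Fraction 7 libraries 2 and 3. The cause of these changes was not tested.

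Counts over all genes moved too. In Fraction 2 against Fraction 3, 1760 genes passed, but 1108 with the 2 groups alone and 710, 660 and 950 without Fraction 2 library 1, Fraction 2 library 2 and Fraction 3 library 3. In Fraction 6 against Fraction 5, 1968 passed, but 1152 and 1170 without Fraction 6 library 1 and library 2. In Fraction 7 against Fraction 6, 2393 passed, but 1248 with the 2 groups alone, 1561 and 1334 without Fraction 6 library 1 and library 2, and 1589 without Fraction 7 libraries 2 and 3. Splits into higher and lower under quantile normalization and the main scaling were 866 and 1041 beside 1033 and 727 in Fraction 2 against Fraction 3, 1675 and 1664 beside 1125 and 2197 in Fraction 5 against Fraction 3, 2713 and 2479 beside 1872 and 3056 in Fraction 5 against Fraction 2, 1205 and 1470 beside 830 and 1563 in Fraction 7 against Fraction 6, and 3464 and 3467 beside 2718 and 4279 in Fraction 7 against LZ.

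The replicate numbers do not pair the libraries: correlations of same-numbered deviations ran from -0.14 to 0.13. With the replicate block, 8 members passed in Fraction 7 against Fraction 6 (7 without it), and the change of Ebf1 in Fraction 6 against Fraction 5 was -0.00286. The groups of 2 libraries, the unknown depth and Prdm1 values under 1 FPKM limit precision.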
